A study of Mus musculus with 7 samples.

Results

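The Six-family and Eya genes are the upstream tier of the myogenic gene network, and their accessibility was followed here in freshly sorted muscle stem cells (MuSCs). The members were chosen by name: 5 Six-family genes (Six2, Six3, Six4, Six5 and Six6) and 4 Eya genes (Eya1, Eya2, Eya3 and Eya4), 9 of the 21440 protein-coding genes with an annotated start site. At each gene all ATAC-seq peaks overlapping the RefSeq span with 20 kb added on both sides were taken, and a peak within 1 kb of any annotated start site was called a promoter peak. These windows held 95 of the 95163 regions obtained by merging overlapping peaks of all libraries, with 1 region lying in both the Six2 and the Six3 window.

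ATAC-seq marks open chromatin by the cuts of the Tn5 transposase. The study asked whether loss of the ubiquitin ligase Nedd4L changes the chromatin of MuSCs, and sequenced 4 Nedd4L-cKO and 3 Nedd4L-WT libraries of 5000 cells each, sorted from hindlimb muscle of male mice aged 5 to 6 weeks. Nedd4L-cKO mice combine loxP-flanked Nedd4L with Pax7-Cre, so that recombination takes out exon 15 and with it a piece of the ligase's active region. It reaches every cell with a history of Pax7 expression, muscle fibers made by MuSCs included. The alleles carried by the Nedd4L-WT mice were not given in the sources used here, and peak lists cannot show the loss of an exon, so the genotypes rest on the labels. Each library was given as 1 sample of its genotype, and p-values measure the spread between these libraries.

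The libraries kept 14429374 to 20084685 tags and held 69302 to 79158 peaks. The sorted identity was checked by promoter peaks of marker genes. All 10 MuSC markers had one in every library and none of the 6 hematopoietic markers had one in any. Over all protein-coding genes those shares were 63.4% and 31.3%. The other lists were mixed, with a promoter peak in every library at 2 of 6 endothelial, 2 of 6 fibro-adipogenic, 4 of 5 pericyte and smooth muscle and 2 of 4 Schwann cell markers. The defining genes Pecam1, Cdh5, Pdgfra and Sox10 had none in any library. No list stood apart by genotype, as the summed pileup percentile of its promoter peaks overlapped between the genotypes in each. For the MuSC list that sum ran from 869.0 to 890.0 in the Nedd4L-cKO and from 874.8 to 882.6 in the WT. In sorted cells a weaker peak can mean fewer cells with open chromatin or less opening per cell, and peak lists cannot tell these apart.

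Six-family proteins are transcription factors that bind DNA through a homeodomain and a neighbouring domain named after the family, and the MEF3 motif in the control regions of muscle genes is a known target. Eya proteins do not bind DNA on their own: they are phosphatases that join Six-family factors and turn them into activators, while Dach proteins act as co-repressors. In the embryo this network works with Pax3 upstream of the myogenic determination genes. Six4 and Six5 form a subfamily and Six3 and Six6 another, the latter known for the forebrain and the eye, whereas Six2 is best known for keeping nephron progenitors of the kidney undifferentiated.

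RefSeq promoter sequences on GRCm38, the assembly also named mm10, were matched for 7 of the 9 genes (not for Eya1 and Eya2). The 250 bases before the start site are shown for the 3 genes with the strongest promoter pileup among these 7, Six2, Six5 and Eya3, and for Six3 and Six6, which had the weakest. Capitals mark matches on either strand to the GC box (GGGCGG), the CCAAT box (CCAAT), the AP-1 site (TGACTCA) and the core of the MEF3 motif (TCAGGTT). The sequences lie at chr17:85688255-85688504 on the minus strand (Six2), chr7:19094294-19094543 on the plus strand (Six5), chr4:132638796-132639045 on the plus strand (Eya3), chr17:85620584-85620833 on the plus strand (Six3) and chr12:72939632-72939881 on the plus strand (Six6).
Six2: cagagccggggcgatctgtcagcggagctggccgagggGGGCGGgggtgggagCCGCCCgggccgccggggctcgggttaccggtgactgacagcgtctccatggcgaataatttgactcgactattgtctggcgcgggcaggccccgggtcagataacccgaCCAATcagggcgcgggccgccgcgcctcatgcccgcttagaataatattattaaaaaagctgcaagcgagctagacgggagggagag
Six5: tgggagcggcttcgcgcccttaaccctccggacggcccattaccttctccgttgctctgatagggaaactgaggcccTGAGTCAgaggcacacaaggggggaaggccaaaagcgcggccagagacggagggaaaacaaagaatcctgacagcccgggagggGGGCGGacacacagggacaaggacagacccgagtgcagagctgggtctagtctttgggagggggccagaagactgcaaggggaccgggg
Eya3: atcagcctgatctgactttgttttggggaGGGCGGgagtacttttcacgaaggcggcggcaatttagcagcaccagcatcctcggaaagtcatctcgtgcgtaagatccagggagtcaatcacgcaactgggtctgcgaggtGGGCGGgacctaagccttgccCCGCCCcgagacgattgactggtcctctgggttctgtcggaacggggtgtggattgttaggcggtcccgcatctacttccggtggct
Six3: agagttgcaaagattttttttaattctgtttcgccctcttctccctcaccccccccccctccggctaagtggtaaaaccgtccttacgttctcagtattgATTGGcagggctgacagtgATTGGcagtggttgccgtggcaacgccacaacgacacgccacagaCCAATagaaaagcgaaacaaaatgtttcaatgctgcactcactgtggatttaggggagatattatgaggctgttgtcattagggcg
Six6: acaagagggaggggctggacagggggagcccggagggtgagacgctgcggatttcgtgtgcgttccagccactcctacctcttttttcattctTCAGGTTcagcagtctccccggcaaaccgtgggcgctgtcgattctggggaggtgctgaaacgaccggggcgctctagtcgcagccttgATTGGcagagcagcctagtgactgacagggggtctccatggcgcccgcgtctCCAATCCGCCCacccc

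Sequence composition was compared over the window from 250 bases before to 50 bases after the start site. The Six2 promoter was the most CpG-rich of the 7 genes, with 37 CpG dinucleotides and an observed to expected CpG ratio of 1.13, higher than 98.2% of the 21255 promoters in the table. Eya4, with start sites in the table at 2 positions, reached ratios of 0.92 and 1.02, and Eya3 reached 0.95. The Six5 promoter had a G+C content of 66.0% but a CpG ratio of 0.56, close to the median over all promoters of 0.57. Six3 had the lowest G+C content of the 7, at 50%, below the median of 56.3%.

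A GC box was found in the window of 6 of these 7 genes, all but Six3, and 46.2% of all promoters held one. The Six3 window held 3 CCAAT boxes and Six6 held 2, a motif present in 38.2% of all promoters. The MEF3 core, the letters that Six-family factors bind, was found once at Six6, 157 bases before the start site, and once at the downstream of 2 Six4 start sites, 97 bases before it on the reverse strand. It occurs in 3.85% of all promoters. The AP-1 letters were found at Six5 alone, 173 bases before the start site, against 4.66% of all promoters, and the TATA box (TATAAA) was found at none of the 7, against 12.6%. No 2 matches overlapped (0 overlapping pairs), although a CCAAT and a GC box adjoin at Six6. A match of letters is a description of the sequence and does not show binding.

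All 9 genes had a promoter peak in all 7 libraries, so no paralog was closed by the peaks as deposited. Over all protein-coding genes 63.4% had a promoter peak in every library and 31.3% had none in any. The 9 genes differed in the strength of that peak. Strength was read in 2 ways, each as a percentile among all peaks of the same library: the pileup, which is the mean coverage by extended tags, and the fold enrichment of that coverage over the local background.

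By pileup, Six2 stood first. Its promoter peak lay at percentiles 98.9, 98.9, 96.1 and 97.2 in Nedd4L-cKO replicates 1 to 4 and at 96.6, 97.9 and 98.3 in WT replicates 1 to 3. The genotypes overlapped, and 91.1% of the 13594 protein-coding promoters called in every library had a lower median percentile. This promoter is shared in part with the lncRNA CJ186046Rik, whose start site lies within 1 kb, and the peaks covered 1875 to 2142 bp.

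Six5 and Eya3 followed, and their order could not be separated. Six5, which lies just downstream of the myotonic dystrophy kinase gene Dmpk, had pileup percentiles of 90.9, 92.7, 94.8 and 93.8 in the Nedd4L-cKO and 94.1, 91.4 and 92.8 in the WT. Eya3, a widely expressed member of its family, had 92.0, 91.9, 92.0 and 91.8 in the Nedd4L-cKO and 92.6, 95.7 and 93.2 in the WT. Six5 was the higher in 4 of the 7 libraries.

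Eya1, which is mutated in branchio-oto-renal syndrome, had pileup percentiles between 87.7 and 90.9 over the 7 libraries. Its peak did not cover the outer start site in any library: the merged region at chr1:14309408-14310696 began 339 bp inside the gene. Eya4, a gene of inherited deafness and dilated cardiomyopathy, had percentiles between 81.1 and 85.9, and Six4, a Six-family gene of muscle precursors, between 72.2 and 80.3. Eya1 was lower than Eya3, Eya4 lower than Eya1 and Six4 lower than Eya4 in all 7 libraries, with no overlap of the ranges.

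The weakest promoters were those of Six3, Eya2 and Six6. Six3 had pileup percentiles of 51.4, 62.6, 57.8 and 52.6 in the Nedd4L-cKO and 53.9, 49.1 and 43.8 in the WT. Eya2, an Eya gene of muscle precursors, had 17.8, 45.6, 41 and 33.1 in the Nedd4L-cKO and 32.5, 42.4 and 32.1 in the WT. Six6 had 11.3, 21.4, 41.2 and 28.2 in the Nedd4L-cKO and 37.5, 10.2 and 8.65 in the WT. The genotypes overlapped in all 3 genes. Six3 was above Eya2 in all 7 libraries, but Eya2 was above Six6 in only 5, so the latter pair was not separated beyond its spread. At the median, 1.38% of the promoters called in every library were weaker than Six6, 3.48% were weaker than Eya2 and 9.11% were weaker than Six3.

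**Figure D1:**
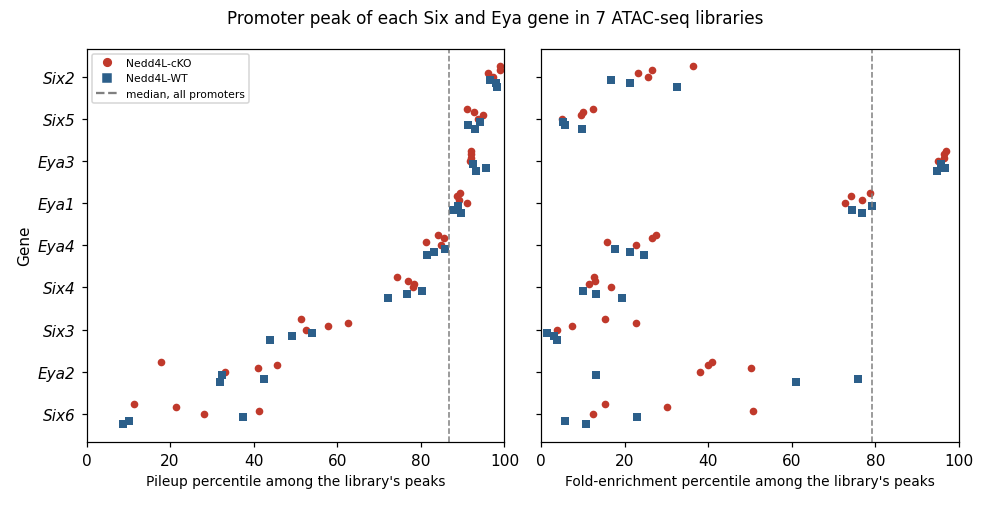
Pileup percentile (left) and fold-enrichment percentile (right) of the promoter peak of each gene in each library, with 1 point per library, Nedd4L-cKO as circles and WT as squares. The dashed lines are the medians of 13594 protein-coding promoters called in every library, 86.8 for pileup and 79.3 for fold. Six2 and Six5 sit high on the left and low on the right, and only Eya3 lies above both lines in every library.

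The order by fold enrichment was another one. Eya3 was first, with a fold of 5.73 to 6.35 and fold percentiles of 94.7 to 96.8. Eya1 was second, with a fold of 4.30 to 4.82 and percentiles of 72.7 to 79.1. The other 7 genes had median fold percentiles from 3.95 to 41, against a median of 79.3 over all promoters called in every library and 22.8 over the 9 genes. Six2, at the top by pileup, had a fold of 2.92 to 3.40 and percentiles of only 16.9 to 36.5. Six5 had a fold of 2.45 to 2.83, with percentiles of 12.5, 10.0, 9.50 and 5.11 in the Nedd4L-cKO and 5.28, 5.74 and 9.79 in the WT. The lowest median percentile was that of Six3, where the fold was 2.17 to 3.01 and 1.29% of the promoters were lower. Six5 was above Six3 in 5 of the 7 libraries, and the pair was not separated beyond its spread.

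Several of these promoter peaks were long. The median length of the promoter peak was 3340 bp at Six5, 3219 bp at Six4, 2463 bp at Eya4 and 2036 bp at Six2, compared with 1316 bp over all promoters called in every library. Between 91.1% (Six2) and 99.7% (Six5) of these promoters had shorter peaks. At Eya3 and Eya1, the pair with high fold, the medians were 1185 and 1202 bp, and at Eya2 and Six6 they were 739 and 572 bp. Six3, with the lowest median fold percentile, had a median length of 1103 bp, so a low fold was not limited to long peaks. MACS2 took the local background from up to 10000 bp around each peak, and the part of peak length in the fold was not tested.

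Six4 and Six5 had the longest peaks in the group, and both ran over a neighbouring gene. The merged Six5 region at chr7:19092530-19096090 began inside Dmpk, whose span ends at position 19093821. The Six4 region at chr12:73110182-73113605 held 2 of the 3 annotated Six4 start sites and reached the outer start of Mnat1, at position 73112185, on the opposite strand. Six4's promoter peak measured 3398, 1090, 3219 and 3161 bp in Nedd4L-cKO replicates 1 to 4 and 3286, 3251 and 1086 bp in WT replicates 1 to 3. It was thus short in 1 library of each genotype. In both, a merged region of the Six4 window held more than 1 peak. There were 3 peaks in 2 regions in Nedd4L-cKO replicate 2 and 4 peaks in 3 regions in WT replicate 3. Exons and introns on GRCm38 were not determined here.

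A stricter threshold separated the genes more sharply. The −log10 q of the promoter peak, its significance as given by the peak caller, was 20.7 to 26.0 at Eya3, 13.5 to 17.4 at Eya1, 10.9 to 16.3 at Six2, 7.38 to 8.91 at Six5 and 6.11 to 8.26 at Eya4. These 5 genes passed a −log10 q of 5 in all 7 libraries, as did 53.5% of protein-coding genes. Six4 passed in 5 libraries, with values of 4.86, 4.74, 5.24 and 6.05 in the Nedd4L-cKO and 5.86, 5.72 and 5.01 in the WT. Eya2 passed in WT replicate 2 alone, at 5.68, and its other values were 2.17 to 4.01. Six3, at 1.55 to 3.75, and Six6, at 1.27 to 3.88, passed in none. With peaks required to hold a narrow peak, a requirement met in every library by 62.0% of protein-coding genes, Six3 kept its promoter peak in 6 libraries and Six6 in 4.

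**Figure D2:**
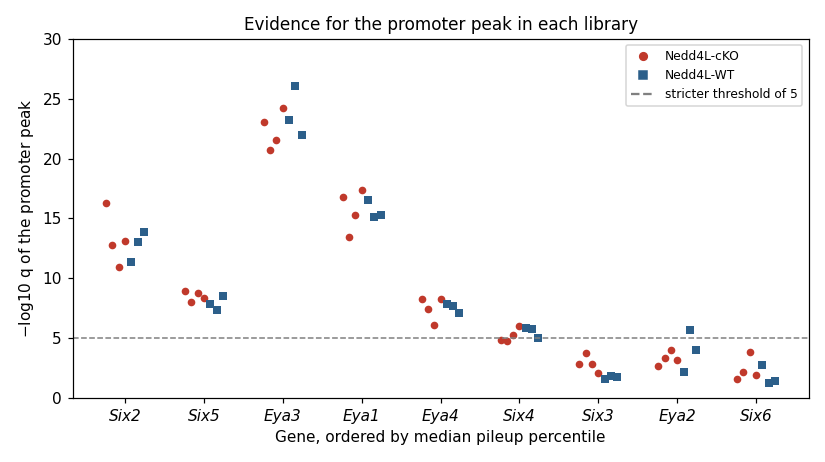
The −log10 q of the promoter peak (y axis) of each gene in each library, ordered by median pileup percentile, with Nedd4L-cKO as circles and WT as squares. The dashed line is the stricter threshold of 5: all 7 libraries of Six2, Six5, Eya3, Eya1 and Eya4 lie above it, all of Six3 and Six6 below.

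Paralogs of a pair could thus differ. Six5 was above Six4 in all 7 libraries, by 13.8 to 20.7 percentile points of pileup. By fold percentile the order was the reverse, with Six4 above Six5 in all 7 libraries (medians 13.1 and 9.50). By pileup Six3 was above Six6 in all 7 as well, by 16.4 to 41.1 points, although both belonged to the weakest of the 9. Here too the median fold percentile had the other order, 15.3 at Six6 and 3.95 at Six3. The 4 Eya genes spanned from a median pileup percentile of 92.0 (Eya3) to 33.1 (Eya2), and Eya3 was above Eya2 by 46.3 to 74.2 points.

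Outside the promoter region, of which each gene had 1, the windows of the larger Eya genes held the most regions. Eya2, with a span of 176.7 kb, had 27, and Eya4, with 247.9 kb, had 24, followed by Eya1 with 11 over 142.1 kb. Eya3 and Six3 had 6 each, Six2 had 5, Six5 had 4, and Six4 and Six6 had 2 each. Per 100 kb of window, with the promoter region counted, Six3 (13.3), Eya2 (12.9) and Six5 (11.4) were the densest. Of protein-coding windows, 89.2%, 87.9% and 81.7% lay below them, while Six4 (5.51) and Eya3 (5.57) were near the median window of 5.72. By regions called in all 7 libraries alone, Six3 (9.51), Six2 (7.63) and Six5 (6.82) led. Eya2 (5.08) then had 64.8% of windows below it. In the Six5 window 3 of the 5 regions lay at start sites of other genes.

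Of the 95 regions 48 were called in all 7 libraries (50.5%), 17 in 1 library and 30 in between. Over the whole series 56.0% of regions were called in all 7. The 39 regions outside the promoters called in every library had a median pileup percentile of 44.2 and a median fold percentile of 63.9, while the 9 promoter regions had medians of 84.2 and 22.8. All regions called in every library had medians of 60.9 on both scales. These medians pool the genes, and single genes differed. Six5 had 2 other regions called in every library, both at start sites of neighbouring genes (Dmwd and Dmpk), and Six6 had 1. Over such regions the median pileup percentile was above that of the promoter at Six5 (95.8 and 92.8) and Six6 (31.6 and 21.4). The same held at Eya2 (37.4 and 33.1) and Six3 (53.0 and 52.6). The median fold percentile was below that of the promoter at Eya1 (47.0 and 76.9) and Eya3 (92.8 and 96.4).

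**Figure D3:**
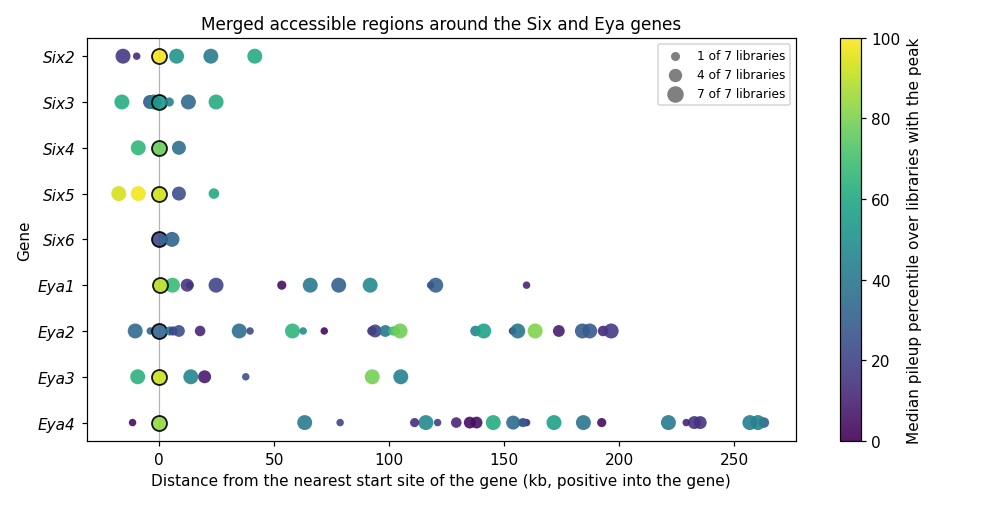
Merged accessible regions in each gene's window by distance from the nearest start site of the gene (x axis, kb, positive into the gene and beyond its end). Point size gives the number of libraries with a peak, colour the median pileup percentile, and a black rim marks the promoter region. Eya2 has a weak promoter region and 27 others spread over its window, and Eya4 a stronger promoter region and 24 others.

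At Eya2 the strongest region was not the promoter. The region at chr2:165758405-165760254, 163.4 kb into the gene, had pileup percentiles of 78.5, 79.9, 87.0 and 86.4 in the Nedd4L-cKO and 88.1, 77.6 and 80.9 in the WT. In each library it was above the Eya2 promoter peak, which reached 45.6 at most. At Eya4 the strongest region outside the promoter was chr10:23202960-23204711, 145.2 kb into the gene, at percentiles of 58.3 to 68.9, below the promoter in every library. At Eya1 it was chr1:14304219-14305288, 5.75 kb into the gene, at 64.1 to 69.5.

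Some strong regions belonged to the start sites of neighbours. In the Six5 window, chr7:19083031-19085420 lay at the start of Dmpk and had pileup percentiles of 96.7 to 99.3, above the Six5 promoter in every library. In the Eya3 window, chr4:132731612-132732949 lay at the start of Xkr8, with 69.2 to 81.5, and in the Six4 window, chr12:73123163-73124313 lay at a start of Mnat1, with 55.5 to 75. The region shared by the Six2 and Six3 windows, chr17:85645527-85646735, lay outside both gene spans and at no annotated start site. It was 41.5 kb downstream of the Six2 start and 24.7 kb beyond the Six3 start, with percentiles of 57.8 to 64.6. At Six6 the only other region called in every library, chr12:72945416-72946542, was weak, with 17 to 49.5.

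The number of regions called at the large Eya genes varied among libraries of the same genotype. At Eya2, Nedd4L-cKO replicates 1 to 4 had a peak in 13, 16, 18 and 23 of the 28 regions and WT replicates 1 to 3 in 21, 14 and 13. At Eya4 the numbers were 11, 15, 14 and 22 of 25 in the Nedd4L-cKO and 15, 14 and 14 in the WT. Nedd4L-cKO replicate 4, with the most tags kept (20084685), had the most regions at both genes. Of the 47 regions of all windows not called in every library, that replicate had 33, and Nedd4L-cKO replicates 1, 2 and 3 had 6, 17 and 16. WT replicates 1 to 3 had 24, 14 and 14. The order did not follow depth throughout, since Nedd4L-cKO replicate 3, second in tags (18413796), had 16 and WT replicate 3, with the fewest (14429374), had 14. The part of depth in these counts was not tested.

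The covered length of the loci did not separate the genotypes. In the Eya2 window peaks covered 11.8 ± 2.38 kb (SD, n = 4) in the Nedd4L-cKO and 11.5 ± 2.42 kb (n = 3) in the WT, a difference of 0.29 kb (exact permutation test, two-sided p = 0.86). In the Eya4 window they covered 14.1 ± 3.01 and 13.3 ± 1.68 kb, a difference of 0.80 kb (exact permutation p = 0.83). At Six6 they covered 1.59 ± 0.53 and 1.26 ± 0.30 kb, with the lowest p of the 9 genes (exact permutation p = 0.40). The other 6 genes differed by between -0.14 and 0.13 kb, and none of the 9 had covered lengths that separated the genotypes, compared with 3.13% of the 17935 windows tested. Without Nedd4L-cKO replicate 4 the difference was -0.77 kb at Eya2 and -0.66 kb at Eya4, and 1 of the 9 genes was higher and 8 were lower in the Nedd4L-cKO, against 5 and 4 with all libraries. The smallest p possible with these libraries is 0.0286, and after adjustment over all windows no window of the series was called (0%), so adjusted values say nothing on stability here.

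**Figure D4:**
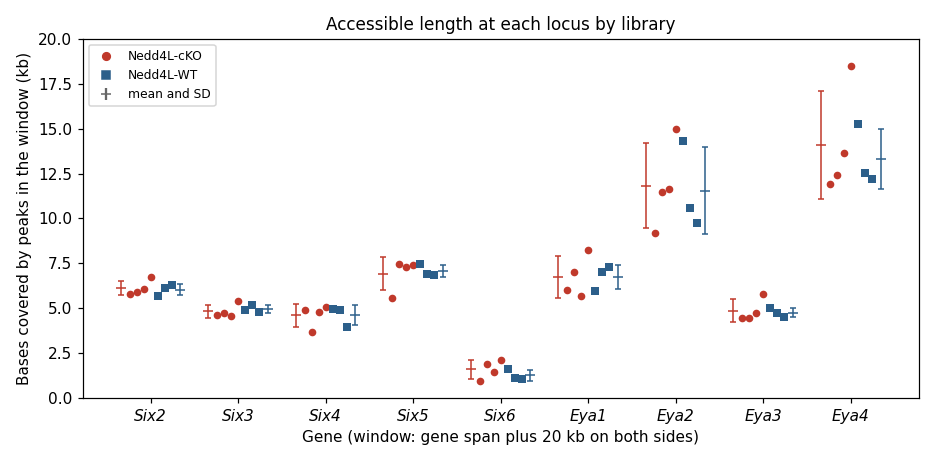
Bases covered by peaks (kb, y axis) in the window of each gene in each library, Nedd4L-cKO as circles and WT as squares, with mean and SD at either side. The genotypes overlap at all 9 genes, and Nedd4L-cKO replicate 4 is the highest library at Eya2 (14.99 kb) and Eya4 (18.5 kb).

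The strength of the 48 regions called in every library was compared between the genotypes with limma, on the rank of the fold enrichment within each library turned into normal scores, whose unit is 1 SD of the ranks. No region of the 9 genes passed the Benjamini-Hochberg threshold (lowest adjusted p = 1.00), and neither did any of the 53245 regions of the series (0%). At an unadjusted p under 0.05 there were 3 of the 48 regions (6.25%), against 3.98% of all regions. The differences ran from -0.76 to 0.64, with 26 regions higher and 22 lower in the Nedd4L-cKO, a median of 0.03 beside 0.01 over all regions, and SEs of 0.16 to 0.63. The balance turned without Nedd4L-cKO replicate 1 (19 of 50 regions higher and 31 lower, median -0.05) and without WT replicate 3 (21 and 27, median -0.05). Among the 9 promoter regions 6 were higher and 3 lower.

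**Figure D5:**
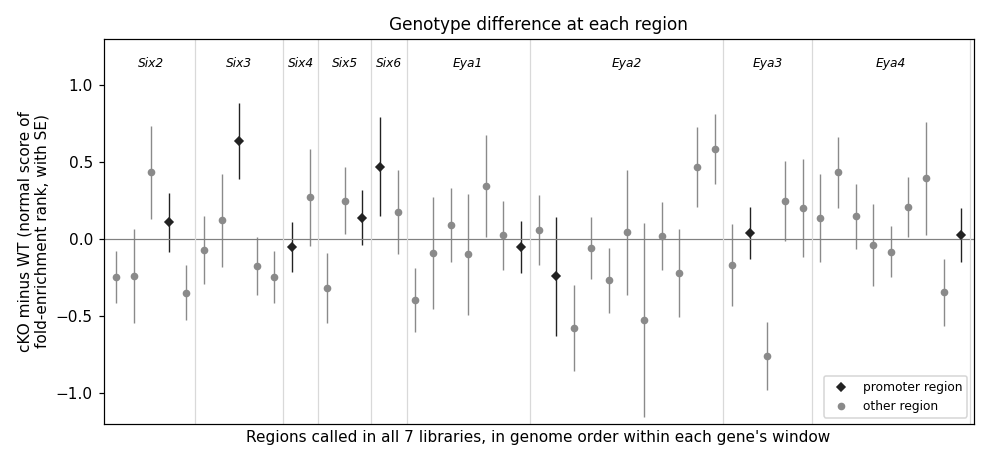
Difference between Nedd4L-cKO and WT (y axis, normal score of the fold-enrichment rank) with its SE at each region called in all 7 libraries, by gene and in genome order. Black diamonds are promoter regions and grey circles other regions. The differences lie on both sides of 0, between -0.76 and 0.64, and no region passed the adjusted threshold.

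The most negative difference was in a region of Eya3, chr4:132652753-132653377, 13.7 kb into the gene. Its fold percentiles were 86.4, 87.5, 90.7 and 86.7 in the Nedd4L-cKO and 92.3, 98.2 and 98.3 in the WT, so that the genotypes did not overlap. The difference was -0.76 ± 0.22 (SE; limma unadjusted p = 0.0068, adjusted p = 1.00). The other region named for the lowest p in this direction was chr2:165629781-165630587 in Eya2, with fold percentiles of 34.1, 39.2, 61.8 and 73.1 in the Nedd4L-cKO and 76.7, 73.6 and 63.9 in the WT. Its difference was -0.58 ± 0.28 (limma unadjusted p = 0.066, adjusted p = 1.00), and the genotypes overlapped.

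In the other direction the lowest p was at the Six3 promoter. Its fold percentiles were 15.4, 22.8, 7.51 and 3.92 in the Nedd4L-cKO and 1.45, 3.13 and 3.95 in the WT, with Nedd4L-cKO replicate 4 inside the WT range. The difference was 0.64 ± 0.25 (SE; limma unadjusted p = 0.028, adjusted p = 1.00). The second was chr2:165791459-165792229, beyond the end of Eya2 and inside the span of the neighbouring gene Zmynd8. Its fold percentiles were 65.0, 39.8, 42.9 and 56.1 in the Nedd4L-cKO and 29.7, 20.3 and 40.1 in the WT. The difference was 0.59 ± 0.23 (limma unadjusted p = 0.029, adjusted p = 1.00).

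Ranked among the regions called in every library, 4 of the 48 had no overlap between the genotypes, as did 4.76% of all such regions. They were the Eya3 region above, the region inside Zmynd8, the region shared by the Six2 and Six3 windows and chr17:85704018-85705283. The last lay 15.8 kb before the Six2 start, inside the span of the lncRNA CJ186046Rik. The first, the third and the fourth were lower in the Nedd4L-cKO. In presence alone no region of the 9 genes was called in all libraries of 1 genotype and in none of the other, which held for 0.151% of the regions of the series.

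A promoter peak in every library was found at 63.4% of all protein-coding genes and at all 10 other genes of the network. These were Dach1, Dach2, Pax3, Pax7, Myf5, Myf6, Myod1, Myog, Lbx1 and Met. Their median pileup percentiles ran from 97.1 at Myod1, 93.4 at Met, the receptor of hepatocyte growth factor, and 92.7 at Lbx1, a homeobox gene of migrating precursors, down to 6.05 at the co-repressor gene Dach2. Its paralog Dach1 was at 64.9, so that unequal promoters within a pair were seen in the Dach genes too. Pax7, which marks MuSCs, was at 85.8 and Pax3 at 72.4. Of their 10 promoter regions 7 were higher and 3 lower in the Nedd4L-cKO by limma, and none passed the threshold at an adjusted or unadjusted p. The lowest was Dach1, at a difference of 0.46 ± 0.20 (limma unadjusted p = 0.050, adjusted p = 1.00).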

How the data were processed

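The authors trimmed reads with Trimmomatic 0.39, aligned them to mm10 with BWA-MEM 0.7.17 and removed duplicates with Picard 2.26.3. They called broad peaks in each library on its own with MACS2 2.2.7.1 and no control. Per the file headers, tags were shifted by -100 bp and extended to 200 bp, with q cutoffs of 0.1 for broad and 0.05 for narrow peaks. In the deposited tables pileup is a signal (mean tag coverage, without scaling to depth). Fold enrichment, as deposited, is a ratio over local background. Each deposited p-value and q-value is on the −log10 scale. The gapped peak lists deposited by the authors mark narrow peaks.

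The members and lists were chosen with earlier results of these data known. Percentiles run from 0 to 100 among a library's peaks on the 19 autosomes, X and Y, and its 2 mitochondrial peaks were left out. Start sites (RefSeq, GRCm38) were those of the promoter table and the outer end of the span. Strands of genes not in that table came from GENCODE by symbol. Peaks overlapping by at least 1 bp were merged, and the highest value per library was kept. Fold ranks were tested with limma 3.58.1 (R 4.3.3), which was checked on simulated data. Covered length was tested by an exact permutation test over 35 splits, which was checked on fixed example rows against a second implementation. Libraries were grouped by their labelled genotype. No libraries shared a peak of equal ends and pileup, so each counted as 1 replicate. Named regions were the promoter regions, each gene's strongest other region called in every library, the 2 lowest p in each direction and any region separating the genotypes. Alternatives varied the peak threshold, promoter width, overlap, window, ranking measure, covariates and libraries.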

Additional observations from a re-analysis of the deposited data

Results flagged for a closer look

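Among the 4 Nedd4L-cKO libraries, 66 sets of values were screened for a library far from the other 3, and 6 were found. Chance alone finds about 1 in 20 sets of independent, normally distributed values. A count of peaks in which 3 libraries tie and the other differs is always flagged, and several sets came from the same gene. The number found therefore cannot be set against that rate. At Six4 the promoter peak of replicate 2 measured 1090 bp, against 3161 to 3398 bp in the others. WT replicate 3 had a peak of like length (1086 bp). In both libraries a merged region of the Six4 window held more than 1 peak, and these lengths are those of single peaks. At Six5 peaks covered 5.56 kb of the window in replicate 1 and 7.30 to 7.43 kb in the others. At Six3 the promoter peak of replicate 3 measured 922 bp, against 1078 to 1108 bp. In the Six3 window replicate 4, the deepest library, had a covered length of 5.37 kb against 4.59 to 4.71 kb, and 7 peaks against 6 in each of the others. The region at the Mnat1 start in the Six4 window had a fold percentile of 80.4 in replicate 1 and 95.5 to 98.4 in the others.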

How the results depend on the processing

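All 9 genes had a promoter peak in every library under the wider and narrower promoter (2.5 kb and 500 bp), with an overlap of 200 bp, and without any 1 library (9 to 9). With the same number of peaks per library and with a narrow peak required, 7 genes did, the exceptions being Six3 and Six6. At a −log10 q of 5, 5 genes did and 2 genes (Six3 and Six6) had no promoter peak in any library, a number that was 0 under every other setting, and 0 to 0 with 1 library left out.

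No member region passed the limma threshold under ranking by pileup, trend and robust moderation, tags kept as a covariate, a −log10 q of 5, or without 1 library (0 to 0), which includes the fit within lane 1, without WT replicate 3. The replicate numbers in the labels were not used as pairs in the main comparison. The deviations of same-numbered libraries from their group means correlated at -0.12, 0.03 and -0.12. For differently numbered libraries the correlations ran from -0.15 to 0.15, the highest between Nedd4L-cKO replicate 3 and WT replicate 1. The source of these correlations was not tested. With a replicate block 0 member regions passed. An unadjusted p under 0.05 was reached by 3 regions with the block, as in the main comparison, by 5 with tags kept as a covariate or without WT replicate 3, and by 1 without WT replicate 2 or at a −log10 q of 5. The Six3 promoter difference was 0.21 to 0.81, and that of the Eya3 region -0.99 to -0.23, over their alternatives, with the sign kept in each. The smallest difference of both, 0.21 and -0.23, came from ranking by pileup. Both regions were named for a low p in these same libraries, so a kept sign is not independent support. No locus passed the test of covered length under 5 kb flanks, the span alone, counts of peaks, a −log10 q of 5, or without 1 library (0 to 0). These results say nothing on stability. The smallest p the exact permutation test allows was 0.0286 with all libraries and 0.05 or 0.0667 with 1 left out. Without 1 library an adjusted p under 0.05 could therefore not occur. Regions called in all of 1 genotype and none of the other numbered 0 at a −log10 q of 5 and over gene spans, and 0 to 1 without 1 library. The 1 region, in Eya2 at chr2:165693310-165693631, came from leaving out Nedd4L-cKO replicate 4, which alone of its genotype had a peak there.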
